A study of Mus musculus with 8 samples.

Results

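Prostaglandins are lipid signals made from arachidonic acid in a short series of enzyme steps, and the transcripts of 9 genes of that series were followed here in 8 RNA-seq libraries. The 9 genes, Ptgs1, Ptgs2, Ptges, Ptges2, Ptges3, Ptgds, Ptgis, Hpgd and Pla2g4a, were chosen by name from the 23038 genes of the deposited table, at a time when the difference between knockout and control libraries, and the high value of Ptgs1 in it, was already known. Differences of these 9 genes between the groups are therefore given as descriptions: no p-value is printed for them, and a count of members called is given only beside the share over all genes. Every library came from the mouse cell line CAD (short for Cath.a differentiated), which makes catecholamine transmitters and was kept undifferentiated in medium with 8% FBS. The 4 control libraries are titled wild type, although their genotype label reads Control KO, and what that control received is not given in the sources used here. The other 4 libraries came from PFN1 KO cells, made with CRISPR/Cas9 against Pfn1, which encodes the actin monomer-binding protein profilin 1. The labels call the 4 libraries of a group biological replicates without saying whether these are clones or cultures, and the p-values below cover the spread among these libraries alone, which may be technical.

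Phospholipase A2 enzymes release arachidonic acid from membrane lipids, and the cyclooxygenases Ptgs1 and Ptgs2 convert it to the unstable intermediate prostaglandin H2. Terminal synthases then turn that intermediate into prostaglandin E2 (Ptges, Ptges2 and Ptges3), prostaglandin D2 (Ptgds) or prostacyclin (Ptgis), and Hpgd begins their inactivation. Ptgs1 is usually described as the constitutive cyclooxygenase and Ptgs2 as the inducible one; in nervous tissue prostaglandins are known for roles in inflammation, fever, pain and sleep.

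Pfn1 checked the labels. Its level was 399 to 436 RPKM, a read number divided by gene length and library depth, in the control libraries and 130 to 152 RPKM in the knockout libraries, so 32.9% of the transcript remained. Estimated depth was 26200000 to 34400000 reads per library. On the second principal component, with 14.0% of the variance, control library 4 (-11.0, other controls -0.3 to 5.1) and knockout library 1 (11.5, other knockouts -6.4 to 1.7) stood apart from their groups, and values without both are given below. Over the 11465 genes tested, limma called 3489 higher and 1772 lower in knockout cells, and 2750 and 2709 with median-of-ratios scaling. Of 15 markers of catecholaminergic neurons 13 reached 1 RPKM in a group, whereas Slc6a2, the noradrenaline transporter gene, was listed at 0 and Ddc, the aromatic amino acid decarboxylase gene, stayed under 1 RPKM. The markers did not move together: the catecholamine synthesis genes Th and Dbh fell to 34.3% and 32.7% of control, and Chgb, a secretory granule gene, rose from 162 to 347 RPKM (adjusted p = 3.58e-05, 8.41e-08 and 1.35e-06, limma). Chgb makes up most of the higher summed level, 924 to 981 RPKM in knockout against 710 to 773 RPKM in control libraries. In bulk RNA, a change in the number of cells of a type and a change in RNA per cell cannot be told apart.

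The 250 bases before the RefSeq transcription start are shown for 4 genes: for the cyclooxygenases, because one was well expressed and the other nearly silent, and for Ptges2 and Ptgds, which were higher in the knockout libraries together with Ptgs1. The sequences are from RefSeq on GRCm38.p6, which is not stated to be the build of the deposited table, and are given 5′ to 3′ along the gene's strand. They lie at chr2:36230176-36230425 (plus strand), chr1:150099781-150100030 (plus strand), chr2:32395640-32395889 (plus strand) and chr2:25469750-25469999 (minus strand). Capitals mark matches, on either strand, to 6 motifs searched, which do not overlap each other in these windows: the TATA box TATAAA, the GC box GGGCGG, the cyclic AMP response element TGACGTCA, the E-box CACGTG, the AP-1 site TGANTCA and the CArG box of serum response factor.
Ptgs1: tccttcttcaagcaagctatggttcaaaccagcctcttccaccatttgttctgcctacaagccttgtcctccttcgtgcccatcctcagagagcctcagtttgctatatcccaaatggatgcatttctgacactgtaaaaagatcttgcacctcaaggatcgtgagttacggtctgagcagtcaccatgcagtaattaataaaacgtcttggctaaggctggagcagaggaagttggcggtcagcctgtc
Ptgs2: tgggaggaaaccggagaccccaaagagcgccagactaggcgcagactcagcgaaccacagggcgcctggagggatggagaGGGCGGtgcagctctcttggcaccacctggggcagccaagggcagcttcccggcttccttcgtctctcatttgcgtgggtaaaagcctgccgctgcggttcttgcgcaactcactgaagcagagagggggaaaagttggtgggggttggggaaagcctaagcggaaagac
Ptges2: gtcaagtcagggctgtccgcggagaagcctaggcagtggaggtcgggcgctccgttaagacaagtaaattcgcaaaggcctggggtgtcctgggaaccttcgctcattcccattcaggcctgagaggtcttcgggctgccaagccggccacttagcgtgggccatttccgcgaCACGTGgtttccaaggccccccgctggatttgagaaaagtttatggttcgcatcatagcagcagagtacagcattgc
Ptgds: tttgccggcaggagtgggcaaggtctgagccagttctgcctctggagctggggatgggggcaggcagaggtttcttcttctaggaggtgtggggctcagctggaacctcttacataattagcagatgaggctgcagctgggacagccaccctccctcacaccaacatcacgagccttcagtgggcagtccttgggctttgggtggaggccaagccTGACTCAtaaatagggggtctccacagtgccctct

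None of these letter strings occurred in the Ptgs1 window from 250 bases before to 50 bases after the start. The Ptgs2 window held a GC box at position -170 and an E-box at position 17 after the start, a string found in 7.15% of all 32851 RefSeq windows of that length; a GC box was found in 35.7%. The Ptges2 window held an E-box at -77, and the Ptgds window an AP-1 string at -35, found in 7.81% of windows. Ptges and Ptges3 windows held 2 and 4 GC boxes. No member's window held the CArG string or the cyclic AMP response element string TGACGTCA, found in 1.63% and 1.79% of all windows. Variant forms of these elements were not searched. The TATA box string, found in 13.6% of windows, occurred among the members for Hpgd and for 1 of 2 Pla2g4a starts. In Hpgd it lay at position 5 after the start, and in Pla2g4a at -200 on the strand opposite to the gene. RefSeq windows were matched for 8 of the 9 genes, all but Ptgis.

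Genes were tested from a group mean of 1 RPKM upwards, in either group, which 5 of the 9 members reached. Of these 5, 3 were called higher (Ptgs1, Ptges2 and Ptgds) and 1 lower (Ptges3) at a limma adjusted p under 0.05, against 30.4% of all tested genes called higher and 15.5% called lower. All 4 knockout values lay above all 4 control values for 26.7% of tested genes and below them for 14.7%. Because the genes were chosen with this contrast known, nothing is read from these counts. Ptges, one of the 4 members under the filter, also had groups that did not overlap, the knockout values being lower.

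Among the cyclooxygenases, nearly all transcript was Ptgs1. Ptgs1 stood at 11.8, 13.3, 13.4 and 14.9 RPKM in control libraries 1 to 4 and at 39.9, 42.0, 41.1 and 43.1 RPKM in knockout libraries 1 to 4. Every knockout library lay above every control library, with means of 13.4 ± 1.28 and 41.5 ± 1.34 RPKM (SD, n = 4 each), a 3.11-fold difference. On the log2(RPKM + 1) scale used for the fit, the difference was 1.57 with an SE of 0.060, and it was 1.64 without control library 4 and knockout library 1. An estimated 1006 to 1309 reads in control libraries and 3305 to 3876 in knockout libraries lay behind these values. These reads were computed from the RPKM values and the estimated depth, so they are not a second measure of the difference. Ptgs1 ranked 8th of 11465 tested genes by the log2(RPKM + 1) difference, a scale that understates the change of low genes.

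Ptgs2 was almost undetected in either group. It had 2, 2, 3 and 2 reads in control libraries and 1, 0, 3 and 5 reads in knockout libraries, 9 reads in each group. These reads gave 0.0140 to 0.0276 RPKM in control cells and 0 to 0.0400 RPKM in knockout cells, with overlapping groups. For knockout library 2, where no read was counted, 3 reads would have been 0.0253 RPKM. Ptgs1 therefore made up 99.79 to 99.89% of summed cyclooxygenase RPKM in control libraries and 99.91 to 100% in knockout libraries. A change in Ptgs2 was not detectable at this depth.

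Upstream of the cyclooxygenases, Pla2g4a, the gene for the cytosolic phospholipase A2 best known for releasing arachidonic acid, was listed at 0 in all 8 libraries. Hpgd, which encodes the dehydrogenase that starts prostaglandin breakdown, was also listed at 0 in all 8. In total 4907 genes of the table were listed at 0 throughout, and no level or fold is given for these genes.

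The transcripts of the prostaglandin E2 synthases differed in direction: Ptges2 was higher in knockout cells, and Ptges3 and Ptges were lower. Ptges3 encodes the cytosolic synthase, a protein also known as the HSP90 co-chaperone p23, and it was the most abundant of the 9 transcripts. Its values were 114.8, 112.7, 109.8 and 119.2 RPKM in control libraries and 95.2, 99.6, 101.4 and 99.6 RPKM in knockout libraries. The groups did not overlap, and the knockout mean was 86.7% of the control mean (log2 difference -0.20, SE 0.036). RefSeq lists 1 pseudogene named after Ptges3, and how reads shared with such copies were counted is not stated, which leaves its level uncertain.

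Ptges2, the gene for the membrane-associated synthase, was higher in knockout cells. It stood at 12.6, 12.1, 12.9 and 12.8 RPKM in control libraries and at 18.9, 16.7, 16.7 and 19.1 RPKM in knockout libraries. The lowest knockout value was above the highest control value, and the ratio of means was 1.42 (log2 difference 0.47, SE 0.055). Ptges, which encodes the inducible microsomal synthase that is usually coupled to Ptgs2, was scarce. It had 18, 16, 14 and 23 reads in control libraries and 8, 4, 4 and 9 in knockout libraries, or 0.145, 0.127, 0.146 and 0.217 RPKM against 0.0757, 0.0384, 0.0333 and 0.0818 RPKM. All knockout values lay below all control values, at 36.1% of the control mean, but Ptges was under the filter for testing of a mean of 1 RPKM in a group. Per length, Ptges3 accounted for 89.95 ± 0.378% of the summed E2 synthase RPKM in control cells and 84.7 ± 1.24% in knockout cells, Ptges2 for 9.92 ± 0.383% and 15.3 ± 1.21%, and Ptges for 0.125 ± 0.0273% and 0.0491 ± 0.0215% (SD, n = 4 each).

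Ptgds and Ptgis, whose products make other prostanoids, differed from each other in behaviour. Ptgds encodes the lipocalin-type prostaglandin D2 synthase, known as an abundant secreted protein of the brain and its coverings. It stood at 0.730, 1.15, 0.853 and 1.88 RPKM in control libraries and at 2.36, 2.78, 3.05 and 1.77 RPKM in knockout libraries. The groups overlapped, since control library 4 exceeded knockout library 4, and the ratio of means was 2.16 (log2 difference 0.71, SE 0.156). The read counts were 20, 32, 18 and 44 against 55, 64, 81 and 43, so Ptgds rests on far fewer reads than Ptgs1. Without control library 4 and knockout library 1 its log2 difference was 0.87. Summed markers of oligodendrocytes, which are known to express Ptgds, lay at 3.07 to 3.96 RPKM in control and 4.22 to 4.46 RPKM in knockout libraries; 2 of the 7 reached 1 RPKM in a group, and Mag and Olig2 were listed at 0. The part of these markers in the Ptgds difference was not tested.

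Ptgis, the prostacyclin synthase gene, stood at 2.91, 3.29, 3.46 and 2.80 RPKM in control libraries and at 3.41, 2.78, 3.52 and 3.12 RPKM in knockout libraries. The groups covered nearly the same range, and the log2 difference was 0.03 with an SE of 0.077. Its sign turned in some alternatives, at -0.02 under median-of-ratios scaling and -0.01 when control library 4 alone was left out. For Ptgs1 and Ptgis the reads could not be recovered as whole numbers. In GENCODE, Ptgs1 overlaps Gm43621 and Ptgis overlaps 1110018N20Rik and Gm14291, all on the opposite strand. Ptges overlaps the pseudogene Gm13400, which is on the same strand. Since the sources do not say if counting took account of strand, reads of the opposite-strand partners cannot be told apart. Strand would not separate reads of Gm13400 from those of Ptges.

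**Figure D1:**
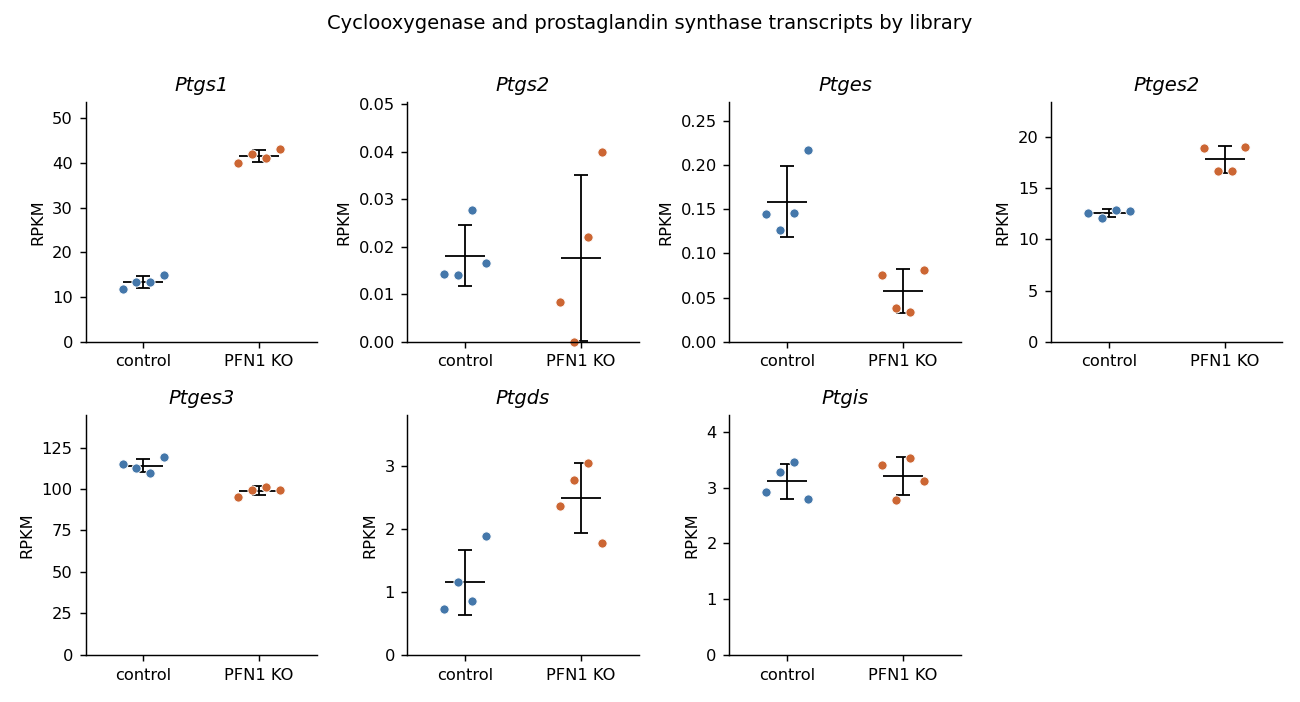
RPKM of the 7 member genes with any reads, by group. Each point is 1 library, horizontal bars are means and whiskers SDs (n = 4 each), and every axis starts at 0; Ptgs1 and Ptges2 lie wholly higher and Ptges3 and Ptges wholly lower in the knockout libraries, whereas Ptgs2, Ptgds and Ptgis overlap.

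The authors' deposited table gives log2 fold changes of 1.64 for Ptgs1, 0.51 for Ptges2, 1.11 for Ptgds, -0.21 for Ptges3, -1.45 for Ptges and 0.05 for Ptgis, the same directions as above. Both sets of values rest on the same libraries. For Ptgs2, almost undetected, the deposited log2 fold change is 0.028 and the plain ratio of mean RPKM was 0.971. These differ in direction, but both lie near no difference.

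In control cells the order of levels per length was Ptges3, Ptgs1, Ptges2, Ptgis, Ptgds, Ptges and Ptgs2. Ptgs1 and Ptges2 did not differ beyond their spread there, with ranges of 11.8 to 14.9 and 12.1 to 12.9 RPKM; every other pair of neighbours in the order had ranges that did not overlap. The ratio of Ptgs1 to Ptges2 per length was 1.06 ± 0.097 in control cells (SD, n = 4) and 2.34 ± 0.188 in knockout cells. In knockout cells the order was the same, but the ranges of Ptgis (2.78 to 3.52 RPKM) and Ptgds (1.77 to 3.05 RPKM) overlapped, as did those of Ptges and Ptgs2. Relative spread in control cells was 2.85% for Ptges2, 3.47% for Ptges3, 9.56% for Ptgs1 and 44.7% for Ptgds (SD over mean).

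Position on the genome was shared by most of these genes. Of the 9, 5 lie on chromosome 2 in RefSeq: Ptgds, Ptges, Ptges2, Ptgs1 and Ptgis, in that order. Tested genes of that chromosome were more often called higher, 649 of 947 (68.5%) against 27.0% of those on other chromosomes, with median log2 differences of 0.26 and 0.04. Against this median, Ptgs1 stood 1.31 higher, Ptgds 0.45 higher, Ptges2 0.21 higher and Ptgis 0.23 lower on the log2(RPKM + 1) scale. On that scale, which understates the change of low genes, Ptgs1 ranked 1st of the 947 genes at 1.571 (SE 0.060). Mir674, a microRNA gene, was level with it at 1.568 (SE 0.291). Lcn2, a low gene of chromosome 2, had a larger ratio of means than Ptgs1, 3.87 against 3.11, but a log2 difference of 1.07. Among the same 947 genes Ptgds ranked 39th, Ptges2 144th and Ptgis 816th. Ptges3, on chromosome 10, was 0.19 below that chromosome's median of -0.01.

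The genes beside Ptgs1 did not reach its difference. Among the 5 nearest tested genes on each side, 6 of 10 were called higher and 0 lower, with log2 differences from 0.03 to 0.45 and a median of 0.21. Mrrf, which encodes the mitochondrial ribosome recycling factor and is the nearest tested gene on one side, rose 1.28-fold (adjusted p = 0.00078, limma), and Pdcl on the other side had a ratio of 1.09 (adjusted p = 0.125). Ptges2 resembled its surroundings more closely: 9 of its 10 neighbours were called higher, and their median log2 difference of 0.51 was near the 0.47 of Ptges2 itself. Its nearest tested neighbours were Lcn2, which encodes the secreted lipocalin 2 and rose from 0.629 to 2.43 RPKM (adjusted p = 5.59e-06), and Slc25a25, a mitochondrial carrier gene, which rose 1.36-fold (adjusted p = 3.11e-05). For Ptgds, 7 of 10 neighbours were called higher and 1 lower (median 0.37), with BC029214 and Fbxw5 nearest at ratios of 1.42 and 1.36. Around Ptges, the member of this chromosome that was lower, 6 of 10 neighbours were called higher (median 0.25), with Asb6 and Tor1b nearest at 1.33 and 1.04. Around Ptgis, 6 of 10 were called higher (median 0.23), with B4galt5 nearest on one side at 1.15.

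**Figure D2:**
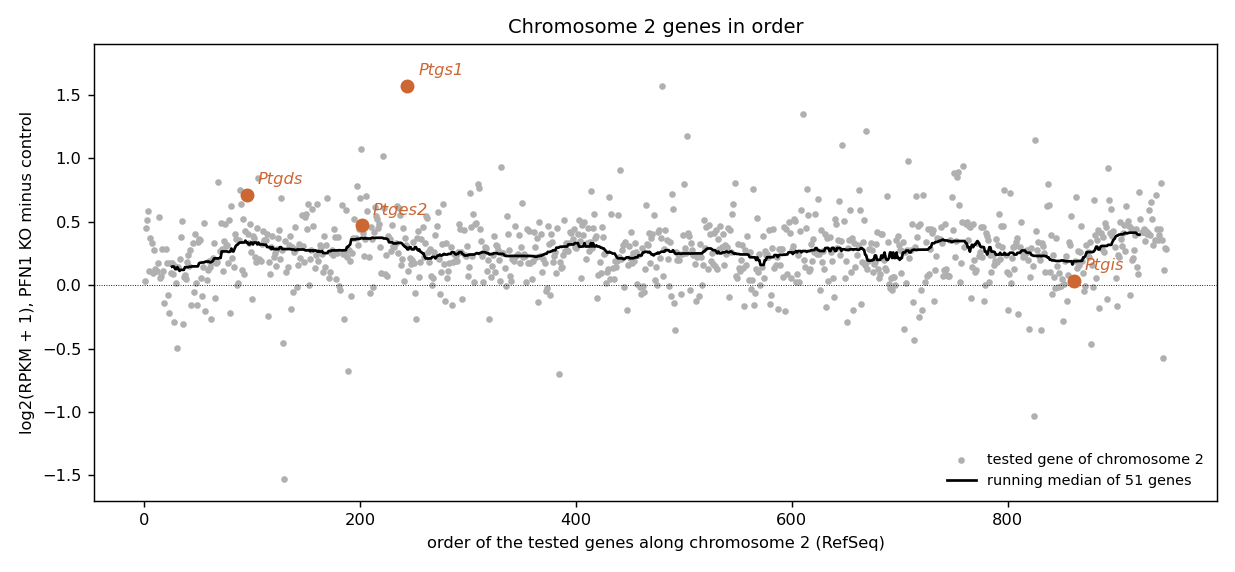
Difference between knockout and control libraries, in log2(RPKM + 1), for the 947 tested genes of chromosome 2 in RefSeq order. Grey points are genes, the black line is the running median of 51 genes and orange points are members; Ptgs1 lies at 1.57, far above the line, Ptges2 and Ptgds lie 0.21 and 0.45 above the chromosome median and Ptgis lies 0.23 under it.

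Genes most like Ptgs1 were sought by Pearson correlation over the 8 libraries on the log2(RPKM + 1) scale. The 5 highest were Gpr115 (r = 0.9978), Map3k5 (0.9966), Arhgef18 (0.9965), Tpra1 (0.9964) and Kcnk6 (0.9963), none of them on chromosome 2. In all, 84 genes reached 0.99; these 8 points fall into the 2 groups, so such a correlation mainly reflects the shared difference between groups. Kcnk6, a potassium channel gene, went from 0.252 to 1.21 RPKM and Gpr115 from 4.21 to 12.4 RPKM. Within groups, after removing each group's mean, the highest were Fam193b (0.9956), Rai1 (0.9939), Lzic (0.9849), Narg2 (0.9834) and 2610507B11Rik (0.9828), so no gene was in both lists of 5. These within-group values were picked as the highest among all tested genes on 8 points. Whether they exceed what such a search gives was not tested. The other members were not close to Ptgs1 within groups, at 0.59 for Ptgds, 0.42 for Ptges3, 0.08 for Ptges2 and -0.22 for Ptgis.

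The receptors that prostaglandins act on, with related proteins, form a list of 12 genes, of which 8 were tested, 4 were called higher and 3 lower, where over all tested genes 30.4% and 15.5% were. Ptger4, a prostaglandin E2 receptor gene, had the highest mean of the prostanoid receptors in control cells and fell, from 15.7, 16.0, 14.8 and 16.2 RPKM in control libraries to 11.5, 12.6, 11.7 and 12.9 RPKM in knockout libraries. The groups did not overlap, and the knockout mean was 77.7% of control (log2 difference -0.34, SE 0.051, adjusted p = 0.000288, limma). Ptgfr, the receptor gene for prostaglandin F2 alpha, was 1.23-fold higher, going from 3.60 ± 0.113 to 4.45 ± 0.432 RPKM (SD, n = 4 each; adjusted p = 0.0119, limma). Ptgir, the prostacyclin receptor gene, went from 10.3 ± 0.742 to 12.0 ± 0.873 RPKM with overlapping groups (adjusted p = 0.0249, limma). Its call was lost under median-of-ratios and under upper-quartile scaling, and when control library 1 or 3, or knockout library 2 or 3, was left out (adjusted p = 0.0597 to 0.0781, limma). Ptger1, another prostaglandin E2 receptor gene, went from 4.55 ± 0.253 to 5.14 ± 0.106 RPKM (adjusted p = 0.0445, limma). That call was lost in 12 of 18 alternatives, among them the removal of any 1 library other than control library 3 (adjusted p = 0.0532 to 0.118). Ptgdr2, a prostaglandin D2 receptor gene listed as Gpr44, stood at 0.857 and 1.05 RPKM (adjusted p = 0.09, limma), and the genes Ptger2 and Ptgdr were listed at 0 in all libraries.

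Pparg, a nuclear receptor gene whose protein is known to bind a prostaglandin D2 derivative, rose from 10.1, 10.7, 10.2 and 10.1 RPKM to 19.6, 19.9, 19.3 and 19.0 RPKM (log2 difference 0.86, SE 0.042, adjusted p = 8.74e-08, limma). Its values were tight within each group and 1.89-fold apart. Ptgfrn, which encodes a membrane protein known as a negative regulator of the F2 alpha receptor, fell to 56.1% of control, from 11.4 ± 0.815 to 6.37 ± 0.337 RPKM (SD, n = 4 each; adjusted p = 3.88e-06, limma). Ppard, a related nuclear receptor gene, fell to 84.4% of control (adjusted p = 0.011, limma).

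**Figure D3:**
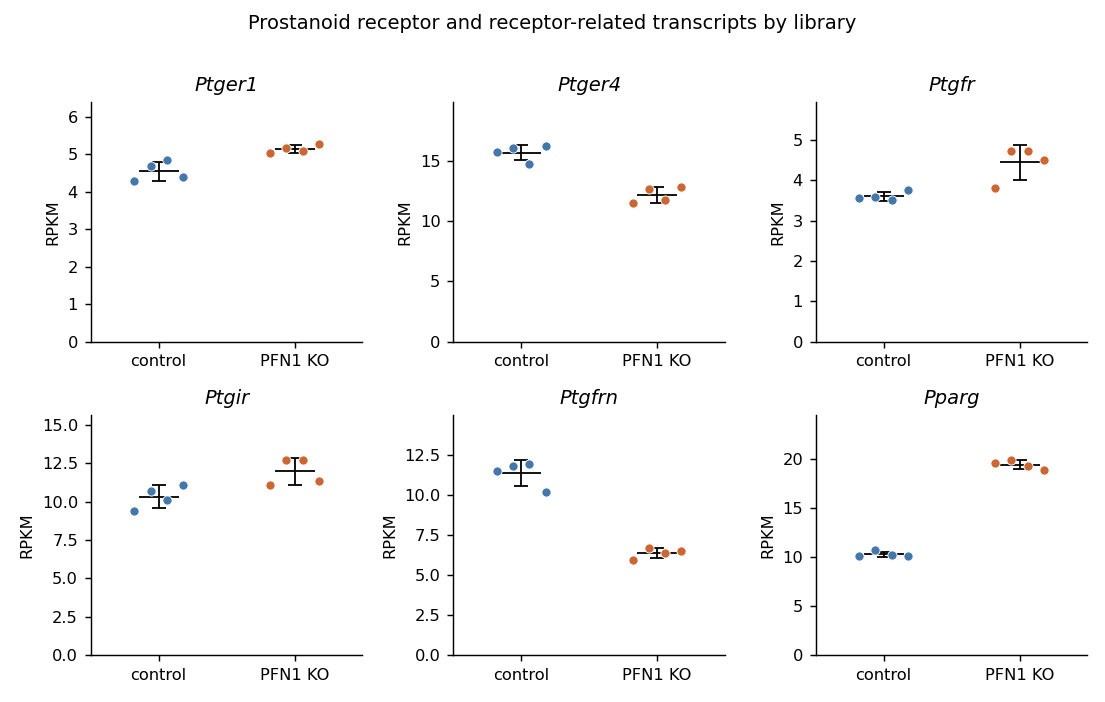
RPKM of 4 prostanoid receptor genes, of Ptgfrn and of Pparg by group. Each point is 1 library, horizontal bars are means and whiskers SDs (n = 4 each); Ptger4 and Ptgfrn lie lower and Pparg higher in the knockout libraries without overlap, whereas the groups of Ptgir overlap.

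The route beyond the members was described with 99 genes in 6 lists by role, the receptor list above among them. The lists were written with earlier results of these data known, and 47 genes were tested. Of these, 17 were called higher and 12 lower, with a median log2 difference of 0.05 against 0.06 over all tested genes, of which 30.4% were called higher and 15.5% lower. Under median-of-ratios scaling 14 were called in each direction, where 2750 and 2709 of all 11447 genes were. The list of phospholipases and platelet-activating factor hydrolases also held related proteins such as Plaa. Of its 10 tested genes 4 were called higher and 1 lower, again beside 30.4% and 15.5% of all genes. Among the 4, Pafah2, a platelet-activating factor hydrolase gene, lost its call when control library 3 or knockout library 3 was left out (adjusted p = 0.0555 and 0.0506, limma). Pla2g4b, a cytosolic phospholipase A2 gene of chromosome 2, rose from 0.696 ± 0.0898 to 1.34 ± 0.278 RPKM (SD, n = 4 each; adjusted p = 0.00153, limma), and Pla2g15, the lysosomal phospholipase A2 gene, rose 1.33-fold. Pafah1b2 fell to 80.6% of control. Secreted phospholipase genes were mostly scarce, with Pla2g12a the one in this list that reached 1 RPKM (13.9 and 14.4 RPKM, adjusted p = 0.432).

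The list of genes that handle arachidonate in membranes also held enzymes that act on other fatty acids. Among its 19 tested genes, 7 were called higher and 5 lower, beside the same 30.4% and 15.5%. Of these calls, that of Lpcat1 was lost in 7 of 18 alternatives, that of Daglb in 5 and that of Elovl5 in 3. Mboat1 and Mboat2, which encode lysophospholipid acyltransferases, went in opposite directions: Mboat1 rose 2.29-fold, from 1.04 ± 0.0932 to 2.38 ± 0.27 RPKM, and Mboat2 fell to 71.4% of control (SD, n = 4 each; adjusted p = 1.79e-05 and 0.00282, limma). Acsl3, an acyl-CoA synthetase gene, fell to 81.1% of control, while Acsl4, the family member with a known preference for arachidonate, stood at 52.1 and 52.4 RPKM (adjusted p = 0.997). Of the other prostanoid synthase genes 4 of 9 were tested, and 0 were called higher and 1 lower: Cbr3, a carbonyl reductase gene, fell to 79.4% of control (adjusted p = 0.00859, limma). Akr1b3 and Akr1b8, aldose reductase family genes, and Cbr1 had values of 9.12 and 8.62, 10.8 and 11.6, and 16.6 and 16.8 RPKM in control and knockout cells, and were not called.

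Breakdown genes were tested for 4 of 8. Cyp4f13, of a family of fatty acid hydroxylases, rose 1.65-fold (adjusted p = 0.000313, limma) and Ptgr2, a prostaglandin reductase gene, rose 1.19-fold (adjusted p = 0.0088). Ptgr1, the related reductase gene, fell from 2.72 to 2.07 RPKM (adjusted p = 0.0201). It was no longer called when control library 3 or knockout library 2 or 3 was left out (adjusted p = 0.0508, 0.0554 and 0.0582, limma). In the lipoxygenase and epoxide list only 2 of 21 genes reached the filter: Ephx1, an epoxide hydrolase gene, fell to 64.1% of control (adjusted p = 0.00019, limma), and Lta4h, the leukotriene A4 hydrolase gene, stood at 24.5 and 22.8 RPKM without overlap of the groups (adjusted p = 0.0823), and was called lower under both other scalings.

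**Figure D4:**
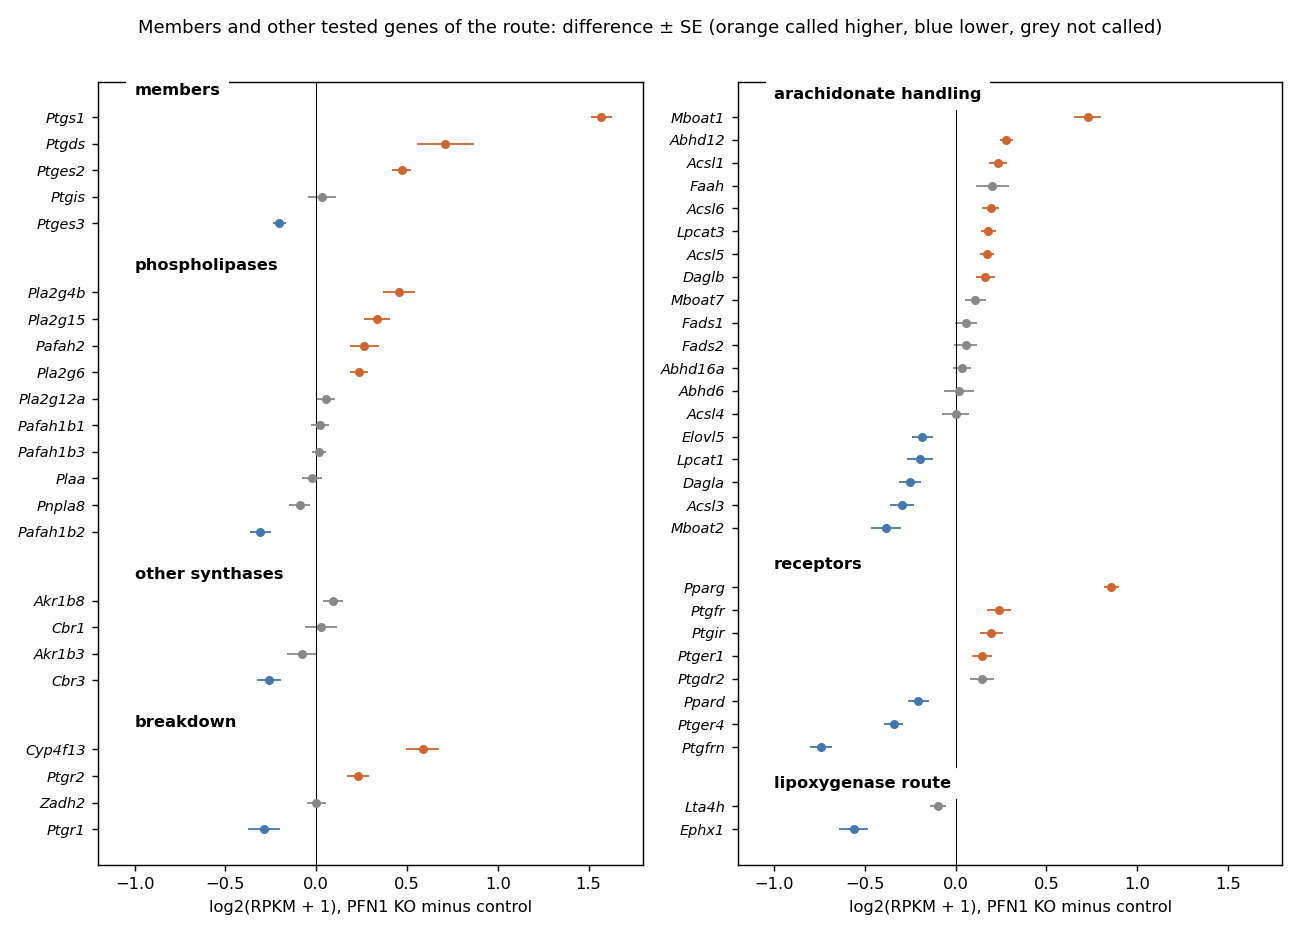
Difference between knockout and control libraries in log2(RPKM + 1), with its SE, for the 5 tested members and 47 other tested genes by role. Orange marks genes called higher, blue lower and grey not called at a limma adjusted p under 0.05; the members' colours are a description, and Ptgs1 at 1.57 lies beyond every other gene drawn, Pparg being next at 0.86.

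Markers of cell types other than neurons that are known to express these enzymes were mostly under 1 RPKM. Every library came from the CAD cell line, so these values are levels of marker genes in that culture. Of 8 macrophage and microglia markers, a cell type known for Ptgs1, none reached 1 RPKM, Tyrobp and Adgre1 were listed at 0, and their summed level was 0.265 to 0.540 RPKM in control and 0.200 to 0.659 RPKM in knockout libraries. Endothelial markers, of a cell type known for Ptgis, summed to 2.58 to 3.75 and 3.39 to 3.88 RPKM, mostly Pecam1, and Tie1 was listed at 0. Fibroblast markers summed to 3.12 to 4.30 and 2.80 to 3.38 RPKM, mostly Dcn (means 2.84 and 2.85 RPKM), with Col3a1 at 0. Astrocyte markers summed to 0.149 to 0.287 and 0.0570 to 0.0773 RPKM, with Aqp4 and Aldh1l1 at 0. The part of these markers in the members' values was not tested.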

How the data were processed

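RNA was sequenced from 8 CAD cell libraries, 4 control and 4 PFN1 KO. The labels' protocols give ribosomal RNA depletion of total RNA and a KAPA stranded kit. The authors deposited 1 table with an RPKM value per gene and library and, for their own group comparison, a log2 fold change, mean log2 CPM, p-value and adjusted p-value. Per the submitters' processing notes, the tools were edgeR, TopHat, Bowtie, RSEM and CASAVA, with no role or order given, and hg19, a human build, is named although gene numbers and symbols are those of mouse. RefSeq on GRCm38.p6 matched 22959 gene numbers and gave chromosomes, gene order and promoters.

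Depth was recovered from low RPKM values: of 1308 low genes above 0 in all 8 libraries, 92.6% came out as whole reads within 1e-06 of a read, and the authors' mean log2 CPM set the absolute scale, from which reads of Ptgs1 and Ptgis were estimated. No count test was run. Reads are not unique molecules, and floors cover counting error only.

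Groups were compared on log2(RPKM + 1) by limma 3.58.1 (R 4.3.3, trended prior, group as single term) where a group mean reached 1 RPKM. Fold changes on that scale understate the change of low genes. Calls are two-sided at a Benjamini-Hochberg adjusted p under 0.05 over all 11465 tested genes. Members, lists and the rule for naming genes were chosen with earlier results of these data known. The rule names all members, up to 3 called genes with the largest change per list, every prostanoid receptor and other synthase that reaches 1 RPKM, the nearest neighbours of members on chromosome 2, and the genes most like Ptgs1. A neighbour of Ptgis is not reported here. Mir674, Th, Dbh, Chgb, Dcn, Pafah2, Lpcat1, Daglb, Elovl5, Pla2g12a, Acsl4, Lta4h, Ppard and the receptors at 0 were named after their values were seen. The alternatives were other pseudocounts, filters, scalings and prior variance, a replicate block, and leaving out libraries or chromosome 2.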

Additional observations from a re-analysis of the deposited data

How the results depend on the processing

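Over 18 alternatives, the number of genes called stayed between 4335 and 5987, against 5261. Leaving out chromosome 2 gives no value for members on it. Among the 99 route genes, 14 to 24 were called higher and 10 to 14 lower, with no count over 1.5 times from the one reported; the high value of 24 came without the filter, which tests more genes. The log2 difference was 1.51 to 1.64 for Ptgs1, 0.41 to 0.50 for Ptges2, 0.61 to 1.10 for Ptgds and -0.27 to -0.16 for Ptges3. That of Ptgis turned negative in 5: -0.015 with median-of-ratios scaling, -0.017 with upper-quartile scaling, -0.030 without control library 4 and knockout library 1, -0.006 without control library 4 and -0.004 without knockout library 3; leaving out 1 library gave -0.006 to 0.082, and the cause was not tested. Without the filter, Ptges had a log2 difference of -0.13 (SE 0.027) and Ptgs2 one of -0.001 (SE 0.014). The pseudocount of 1 shrinks both differences and their SEs at such low levels. By mean RPKM, Ptges stood at 36.1% of control, and Ptgs2 rests on 9 reads in each group. With the replicate number as a block, 5205 genes were called in all, and 17 route genes were called higher and 12 lower. The correlation of same-numbered libraries was 0.18, 0.02, -0.19 and -0.08, and that of differently numbered pairs -0.32 to 0.26. These values do not settle whether same-numbered libraries were handled together. Depth limits Ptgs2, Ptges and Ptgds, which rest on 0 to 81 reads per library.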

Other observations

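Some genes of the route lay under the filter of 1 RPKM and were named after their values were seen. Hpgds, which encodes the haematopoietic prostaglandin D2 synthase, stood at 0.134, 0.220, 0.104 and 0.250 RPKM in control libraries and at 0.209, 0.647, 0.561 and 0.472 RPKM in knockout libraries, with overlapping groups. Gstm2, a glutathione transferase gene, stood at 0.0842 to 0.228 RPKM in control and 0.469 to 0.648 RPKM in knockout libraries, without overlap. Mgll, the monoacylglycerol lipase gene, stood at 0.0762 to 0.140 RPKM in control and 0.0151 to 0.0459 RPKM in knockout libraries, also without overlap. Some route genes under the filter that are not named here also had groups without overlap. Among all tested genes, 26.7% lay wholly higher and 14.7% wholly lower in knockout libraries. Tbxas1, the thromboxane synthase gene, was at most 0.0164 RPKM in any library.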
